A study of Mus musculus with 4 samples.

Results

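The cells described here are the thymocytes of the CD25+ sort gate that held CD4 or T cell receptor alpha transcripts and no Foxp3 transcript. They also held almost no transcripts of Nr4a1, Egr2 and Tnfrsf9, which T cells make after antigen receptor stimulation and which are called response transcripts here. Other transcripts of that response were not limited. They were chosen on raw transcript counts (unique molecular identifiers, UMIs): Foxp3, Ptcra and Rag1 at 0, Mki67 under 3, Cd8b1 under 2, Cd4 and Trac together at least 1, and Nr4a1, Egr2 and Tnfrsf9 together under 2. Of 23210 cells kept in the series, 604 met this rule, 399 in the wild-type library and 205 in the library labelled as PD-1 knockout. PD-1, encoded by Pdcd1, is an inhibitory receptor of T cells.

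The mice, of strain C57BL/6J, were 3 weeks old, and the labels give their genotype as WT or PD-1 knockout. For each genotype 4 animals gave 1 pool of thymi, CD8+ cells were removed, and live CD4+ HSA+ CD73- cells were sorted into CD25+ and CD25- gates. HSA, encoded by Cd24a, is a protein of immature thymocytes. By the protocol, the CD25+ gate is for Foxp3-expressing regulatory T cells (Tregs) together with CD25+ Treg precursors, and the CD25- gate for the remaining CD4 single-positive thymocytes. The list of stains names CD74 and the gate CD73, so which of them was stained is uncertain. There was 1 library for each combination of genotype and gate, so no comparison has a replicate check, no p-value is given, and each difference is between libraries rather than genotypes. The Pdcd1 level in the members was 26.2 CPM (UMI counts summed over the cells of a class and scaled to the same total in every class) in the wild-type and 41.4 CPM in the knockout-labelled library. The labels do not say which part of Pdcd1 is deleted, so reads near its 5′ end do not check the genotype.

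In the thymus, CD4 thymocytes that have passed positive selection stop making Rag1 and Ptcra, move to the medulla and mature. The transcription factor Klf2 and its target S1pr1, a receptor for sphingosine-1-phosphate, mark cells ready to leave. Strong self-antigen signals induce Nr4a1, Egr2 and Tnfrsf9 and the interleukin-2 receptor chain CD25 (Il2ra), and interleukin-2 signals then favour Foxp3, the defining Treg factor.

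Members were 4.86% of the kept cells of the wild-type CD25+ library (exact 95% interval 4.40% to 5.34%) and 2.03% of the knockout-labelled one (1.76% to 2.32%). Cells with a Ptcra or Rag1 UMI, which mark earlier thymocytes, were most of each CD25+ library. They were 5770 of 8215 and 8004 of 10110 kept cells there, and 14 of 3118 and 5 of 1767 in the CD25- gate. Among Cd4- or Trac-bearing cells that met the other conditions, with or without Foxp3 and response transcripts, members made up 31.9% (29.3% to 34.6%) and 27.9% (24.6% to 31.2%). The same rule held 1977 of 3118 wild-type and 1065 of 1767 knockout-labelled cells of the CD25- gate. These CD25- cells had a median of 5154 and 6537 UMIs. The cell filter kept 58.7% and 49.4% of the CD25- barcodes, against 95.4% and 93.6% of the CD25+ ones. Members had a median of 4669 and 4620 UMIs per cell, fewer than the 6313 and 6401.5 UMIs of Foxp3-negative cells with response transcripts in the same libraries. Intervals here and below cover counting error only. The 2 CD25+ libraries shared 118 barcodes among kept cells and 0 among members.

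At the edges of the rule, 315 wild-type and 159 knockout-labelled members had 0 UMIs of the 3 response genes and 84 and 46 had 1 UMI, while 59 and 41 cells that met every other condition lay just outside with 2. The Cd4 and Trac condition divided more cells: 110 and 81 members had exactly 1 UMI of the pair, while 655 and 826 cells failed this condition alone. Those failing cells were at 952 and 888 CPM of Il2ra, 1155 and 814 CPM of Dntt (terminal transferase of early thymocytes) and only 67.2 and 34.2 CPM of Klf2. Members with 1 UMI of the pair had 305 and 324 CPM of Il2ra, against 87.4 CPM and no UMI among those with 5 or more.

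CD25 was the gate, but most members carried no Il2ra transcript. In the wild-type library 327 of 399 members (82.0%, interval 77.8% to 85.6%) and in the knockout-labelled library 159 of 205 (77.6%, 71.2% to 83.1%) had no Il2ra UMI. The transcripts were concentrated: 18 wild-type members held 209 of 302 Il2ra UMIs, and 11 knockout-labelled members held 111 of 171. Cells were next thinned to 1500 UMIs each, which left out 15 shallower members of each library. After thinning, 8.59% of 384 wild-type and 11.6% of 190 knockout-labelled members kept an Il2ra UMI, against 44.0% and 52.4% of Foxp3-positive cells without response transcripts and 82.0% and 78.8% of cells with Ptcra or Rag1. In the CD25- gate the thinned share was 0.0573% of 1745 and 0.195% of 1026 cells under the same rule. Whether cells without the transcript bore the protein was not measured.

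The markers proposed for these cells held for some of them only. In the order Cd4, Trac, Klf2 and S1pr1, the wild-type members were at 348, 171, 429 and 167 CPM, and the knockout-labelled members at 279, 149, 338 and 97.3 CPM. After thinning, 39.6% of wild-type and 33.7% of knockout-labelled members had a Klf2 UMI (57.9% and 48.3% unthinned), against 1.05% and 0.758% of cells with Ptcra or Rag1. S1pr1 was found in 21.9% and 14.2% after thinning (39.6% and 31.2% unthinned), against 0.648% and 0.404% of the Ptcra or Rag1 cells. Clustering of the 604 members on 1500 variable genes showed where these transcripts lay. It gave 5 clusters, whose leading genes are a description because the same genes formed them.

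Cluster 1, with 178 cells, was led by Chl1, Asb2, Id2, Itm2a, Ccr4 and Ccr9. It was called immature single-positive-like because 3 markers of immature single-positive cells (Itm2a, Ccr9, Satb1) were among its 50 leading genes. The name is loose. The mature marker Il7r and the Treg markers Gpr83 and Izumo1r were among the 50 too. Other immature markers (Rflnb, Hs3st3b1, Tdrp, Chd7) led cluster 3 instead. Cd24a was at 48.9 CPM in wild-type and 49.4 CPM in knockout-labelled cells of cluster 1. Itm2a was at 3868 CPM, the thymic homing receptor Ccr9 at 561 CPM and the chromatin organiser Satb1 at 2200 CPM. Klf2 was at 47.9 CPM and S1pr1 at 8.18 CPM, so the marker pair was low here. Cd5, whose level follows receptor signal strength, was at 757 CPM, the highest of the 5 clusters. Il2ra was at 10.5 CPM.

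Cluster 2, with 177 cells, was led by Ctla4, Hopx, Rgs1, Rarg and Gsta4. It stays unnamed because its 50 leading genes held as many Treg markers (Ctla4, Ikzf4, Tnfrsf4, Tnfrsf18) as mature ones (Slfn1, Itgb7, S1pr1, Klf2), with Klf2 at 801 CPM and S1pr1 at 291 CPM. Ctla4, an inhibitory receptor that Tregs hold in quantity, was at 225 CPM, between the 64.0 CPM of all wild-type members and the 348 CPM of wild-type Foxp3-positive cells without response transcripts. Il2ra was at 232 CPM, Il2rb (the interleukin-2 receptor beta chain) at 225 CPM, Cish (a STAT5 target) at 141 CPM and Ikzf2 (the Treg factor Helios) at 479 CPM. Its cells had a median of 3960 UMIs, the lowest of the 5 clusters.

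Cluster 3, with 121 cells, was led by Rflnb, Igfbp4 and Sgk1. It also stays unnamed, with as many immature markers among its 50 leading genes (Rflnb, Hs3st3b1, Tdrp, Chd7) as mature ones (S1pr1, S1pr4, Ms4a4b, Ms4a6b). Klf2 was at 715 CPM, S1pr1 at 313 CPM and Il7r at 386 CPM. Cd24a was at 4.72 CPM, although HSA was a sort marker. Il2ra was at 12.6 CPM and Ikzf2 at 14.2 CPM, so neither CD25 nor Helios transcripts marked these cells. In clusters 1 and 3, Dntt was at 26.9 and 9.45 CPM and the early thymocyte transcript H19 at 1.17 and 3.15 CPM, against 1503 and 290 CPM in the wild-type Ptcra or Rag1 cells without Cd4 or Trac.

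Cluster 4, with 87 cells, was led by the cell division genes Fignl1, Prc1, Cdca2, Tk1 and Lig1 and also by Ikzf2. Tyms, which makes thymidylate for DNA synthesis, was at 81.9 CPM against 5.52 to 11.7 CPM in clusters 1 to 3, and Ikzf2 was at 670 CPM, the highest of the 5. The rule had capped Mki67 at 2 UMIs. Klf2 was intermediate at 302 CPM and S1pr1 low at 56.0 CPM.

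Cluster 5, with 41 cells, went against the label. Its leading genes were Plac8, Tyrobp, Ly6d, Rnase6 and Tmem121, and its 50 leading genes held markers of double-negative, innate and myeloid cells, so it was given no name. Cd4 was at 74.1 CPM and Cd5 at 124 CPM. Tyrobp, an adaptor of natural killer and myeloid receptors, was at 497 CPM and Siglech, of plasmacytoid dendritic cells, at 185 CPM, but both lay in few cells. Tyrobp was found in 14.6% of the cluster's cells, against 82.9% for Plac8 and for Dntt. In each library 1 member held 60 Tyrobp UMIs, of 114 in wild type and 116 in the knockout-labelled library. Siglech was found in 2 members of each library. Dntt stood at 460 CPM, Il2ra at 586 CPM and Cd24a at 571 CPM. Its cells had a median of 10117 UMIs, 5 were marked as doublets out of 8 among all members, and 25 had exactly 1 UMI of Cd4 and Trac. This cluster held 151 of 302 wild-type and 118 of 171 knockout-labelled Il2ra UMIs of the members. The comparisons with the CD25- gate and between libraries are therefore given with and without it, and those with other cells of the CD25+ gate with all clusters except where stated. Klf2 and S1pr1 together were high in clusters 2 and 3, which hold 298 of the 604 members.

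**Figure D1:**
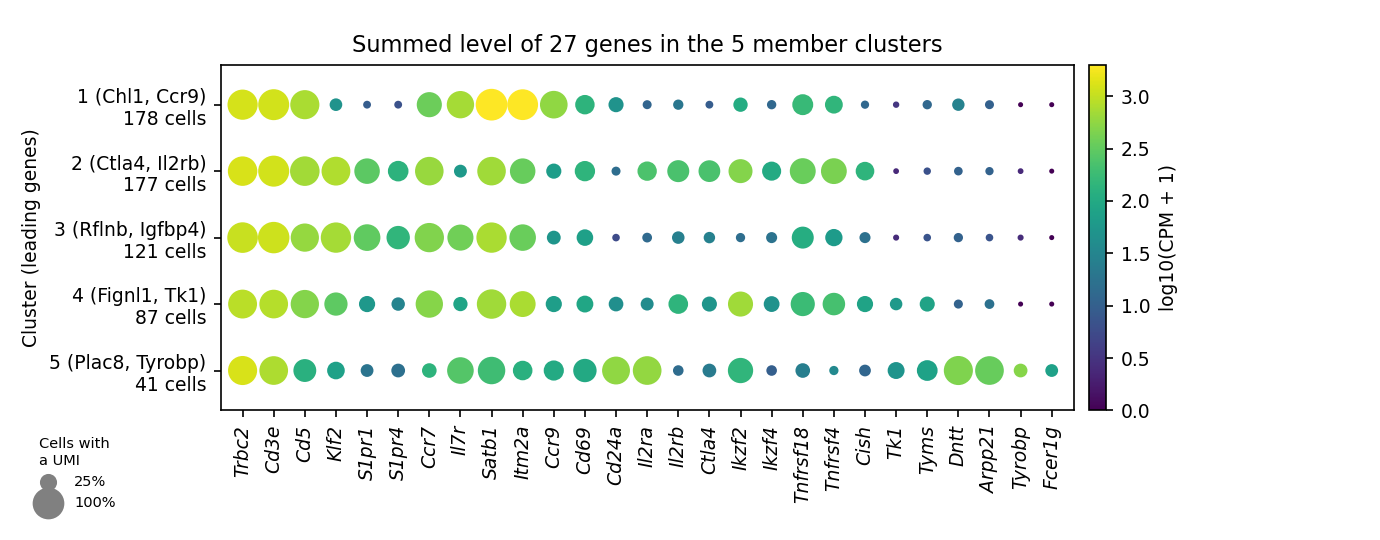
Level of 27 genes in the 5 clusters of members, as log10 of CPM plus 1 (colour) and the percent of cells with a UMI (dot size), summed over both libraries. Klf2 and S1pr1 are high in clusters 2 and 3, Itm2a and Ccr9 in cluster 1, Ctla4 and Il2rb in cluster 2, and Dntt and Tyrobp in cluster 5.

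Both libraries contributed to every cluster. Cluster 1 held 27.6% of wild-type (interval 23.2% to 32.2%) and 33.2% of knockout-labelled members (26.8% to 40.1%), and cluster 2 held 30.1% (25.6% to 34.8%) and 27.8% (21.8% to 34.5%). Cluster 4 held 13.8% and 15.6%. The intervals of these 3 shares overlapped between libraries. Cluster 3, of high Klf2 and low Ikzf2, held 23.8% of wild-type (19.7% to 28.3%) and 12.7% of knockout-labelled members (8.45% to 18.0%), which did not overlap. Cluster 5 held 4.76% (2.89% to 7.34%) and 10.7% (6.85% to 15.8%), which overlapped. Shares are of cells grouped on all genes, including those that differ between the libraries, and no difference in share was tested.

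**Figure D2:**
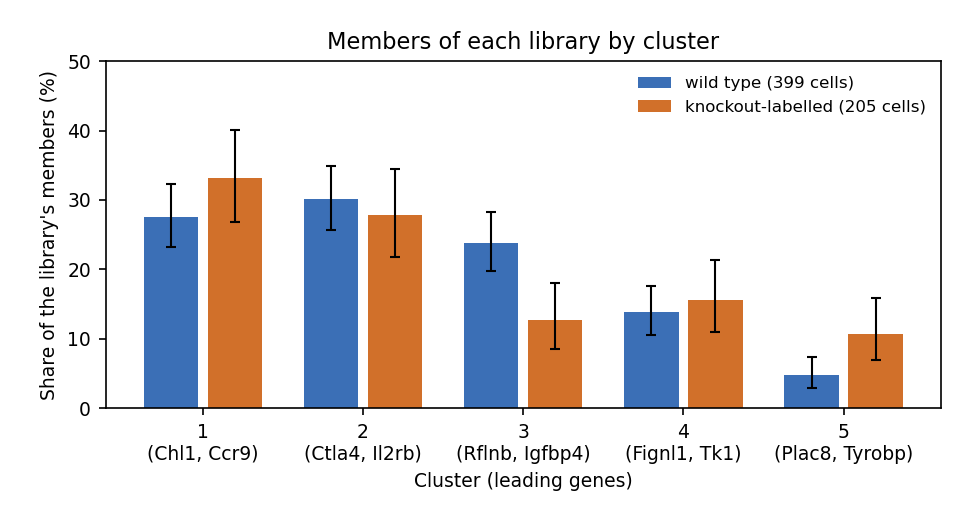
Share of each library's members in each cluster, in percent, with exact 95% binomial intervals that cover counting error only. The intervals are apart for cluster 3 alone (23.8% of wild-type and 12.7% of knockout-labelled members).

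The first comparison between gates asked how CD25+ members differed from CD25- cells that met the same rule. In wild-type members 226 genes were higher by at least 1.5-fold (3.31% of 6825 tested) and 260 lower (3.81%), and in knockout-labelled members 569 were higher (8.26% of 6886) and 468 lower (6.80%). With a counting interval that also excluded no difference, these counts were 226 (3.31%) and 260 (3.81%) in wild type and 551 (8.0%) and 406 (5.9%) in the knockout-labelled library. Without cluster 5 there were 134 higher (1.97% of 6796) and 230 lower (3.38%) in wild type, of which 134 (1.97%) and 226 (3.33%) passed the interval. In the knockout-labelled library there were 270 (3.95% of 6830) and 361 (5.29%), of which 217 (3.18%) and 257 (3.76%) passed it. Many genes that led the full comparison belonged to cluster 5. Plac8 was at 107 and 181 CPM in members against 4.92 and 5.38 CPM in the CD25- gate, and the median log2 ratio of the myeloid and dendritic list was 2.54 in wild type over 9 genes with at least 20 UMIs. Without cluster 5 that median was 0.12 over 5 genes. Some genes of that list rested on few cells: H2-Aa, H2-Ab1 and Siglech UMIs each lay in 2 wild-type members, while Cd74 UMIs lay in 46.

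Genes of the Treg programme were higher in the summed members with or without cluster 5, though not in every cluster. The Treg list holds 15 genes without Foxp3, which the rule fixed, and 10 of them reached 20 UMIs. Without cluster 5, 6 of the 10 were at least 1.5-fold higher in wild-type members and 9 of the 10 in knockout-labelled ones, and none was that much lower with an interval that excluded no change. The medians of the list were 1.13 and 1.41 on the log2 scale, against -0.04 and -0.0003 over all genes tested. Il2ra belongs to this list and encodes the sorted protein, so its higher level is set by the gate. These lists were chosen with earlier results of these data in view and are not independent evidence.

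Ikzf2 was at 275 CPM in wild-type and 251 CPM in knockout-labelled members, against 44.2 and 40.2 CPM in the CD25- gate. The ratios without cluster 5 were 6.63 (interval 5.83 to 7.54) and 6.88 (5.76 to 8.21). Ctla4 was at 64.0 and 82.0 CPM against 18.5 and 12.1 CPM, or 3.70-fold (2.92 to 4.67) and 8.26-fold (6.04 to 11.3) without cluster 5. The summed members were above the CD25- cells in both pairs of libraries for both genes, but the clusters differed. In wild-type and knockout-labelled cells, Ikzf2 was at 135 and 61.0 CPM in cluster 1 and 15.9 and 7.63 CPM in cluster 3. It was at 428 and 605 CPM in cluster 2 and 774 and 491 CPM in cluster 4. Ctla4 was at 3.91 and 14.5 CPM in cluster 1 and 29.8 and 15.3 CPM in cluster 3. In clusters 2 and 4 it was at 187 and 317 CPM and 41.3 and 70.2 CPM. Over all members, Il2rb was at 86.7 and 82.0 CPM against 17.0 and 21.7 CPM, and Cish at 54.7 and 48.6 CPM against 10.9 and 18.8 CPM. The costimulatory receptors Tnfrsf4 (OX40) and Tnfrsf18 (GITR) followed, with Tnfrsf4 at 186 and 192 CPM against 59.3 and 79.3 CPM. Rgs1, which dampens chemokine receptor signals, stood at 44.6 and 55.8 CPM against 9.85 and 15.3 CPM. Ikzf2 UMIs were found in 32.8% and 37.6% of members and Ctla4 UMIs in 16.8% and 23.4%. Ccl5 was among the higher genes in wild type, but 54 of its 56 UMIs lay in 1 cell, and 78 of the 84 Akr1c18 UMIs of the knockout-labelled members also lay in 1 cell.

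Proliferation genes were higher in both pairs of libraries mainly with cluster 5. With all clusters, 12 of 17 measured genes in wild-type and 12 of 14 in knockout-labelled members were at least 1.5-fold higher, with medians of 0.79 and 1.10 on the log2 scale. Without cluster 5 the counts were 3 of 16 and 1 of 14, and the medians 0.36 and 0.43. Cd24a was at 80.9 and 154 CPM in members against 25.6 and 22.8 CPM, and without cluster 5 the ratios were 1.06 (0.765 to 1.44) and 1.31 (0.827 to 1.99), which span no difference.

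The mature and egress list was lower in the members, slightly in wild type and more so in the knockout-labelled library. In wild type none of 14 genes was 1.5-fold lower, with a median of -0.27 on the log2 scale, and in the knockout-labelled library 7 of 14 were, with a median of -0.62 (4 of 14 and -0.35 without cluster 5). Klf2 was at 429 and 338 CPM in members against 531 and 477 CPM in the CD25- gate. S1pr1 was at 167 CPM in wild-type members against 210 CPM, a ratio of 1.26-fold lower (1.12 to 1.41), and at 97.3 CPM in knockout-labelled members against 211 CPM, 2.17-fold lower (1.78 to 2.66). In both gates Klf2 and S1pr1 were above the 197 and 135 CPM of Klf2 and the 32.8 and 19.4 CPM of S1pr1 in the responding cells of the CD25+ gate. Vipr1, the receptor for vasoactive intestinal peptide, was lower in both, at 8.72 and 9.91 CPM against 28.0 and 39.4 CPM. The stress chaperone Hspa1b was at 28.1 and 18.0 CPM against 51.1 and 45.0 CPM. Irf2bp2 was lower by 3.80-fold in wild type (2.92 to 5.04) and by 1.53-fold in the knockout-labelled library (1.07 to 2.26, which spans 1 without cluster 5). The ribosomal RNA-derived feature Gm42418, which varies with RNA quality, was at 6827 and 5958 CPM in members and at 30934 and 18456 CPM in the CD25- gate. Its part in these differences was not tested.

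**Figure D3:**
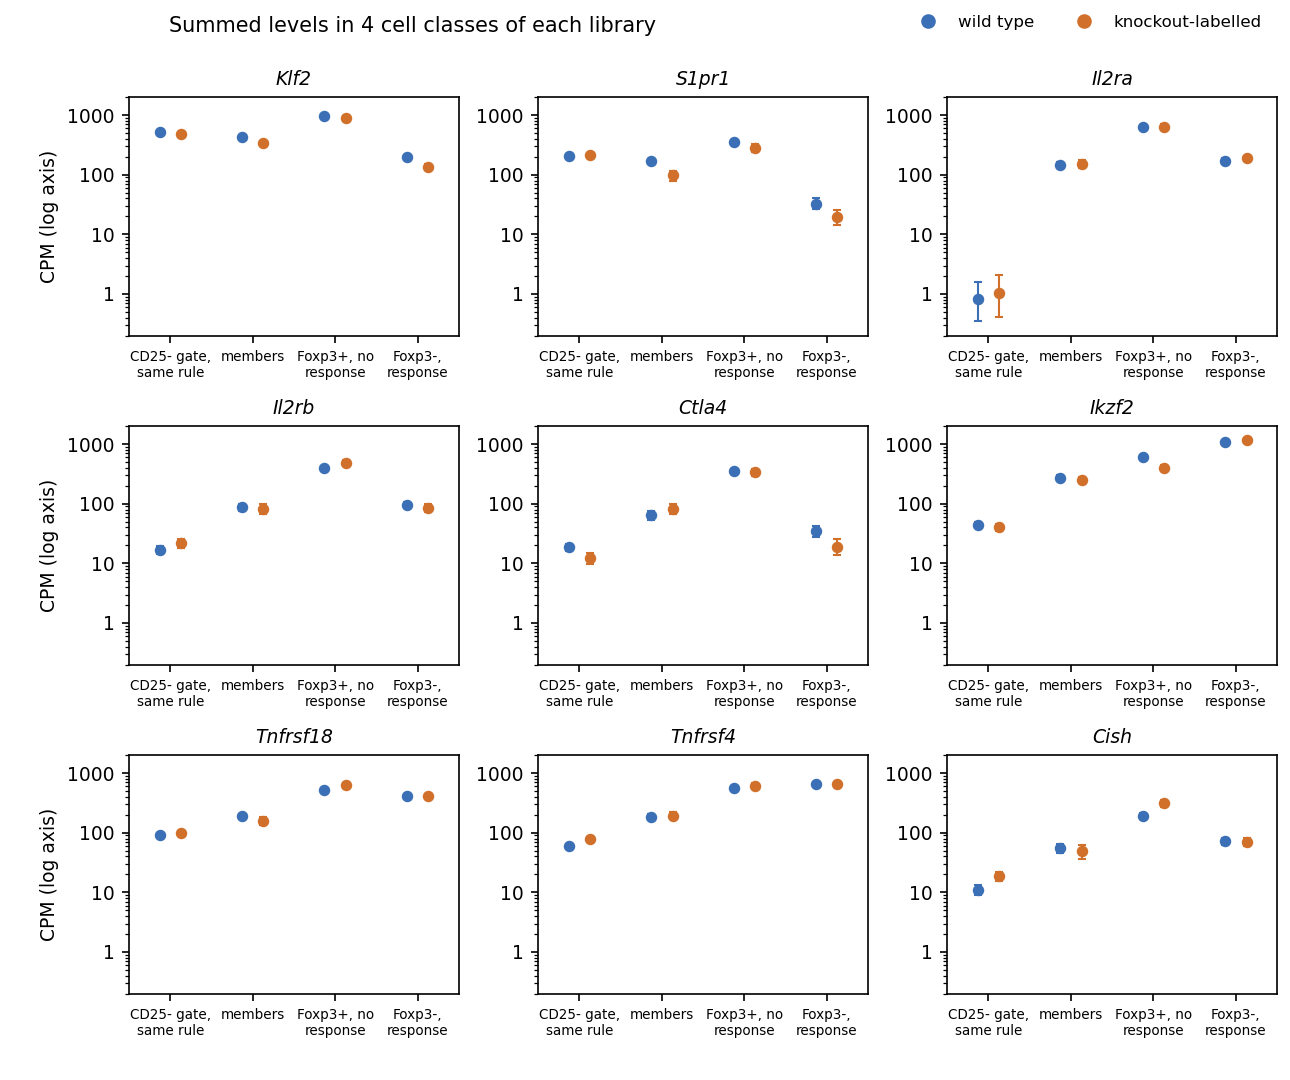
Summed levels (CPM, log axis) of 9 genes in 4 classes of each library, with exact Poisson 95% intervals. For Il2rb, Ctla4, Ikzf2, Tnfrsf18, Tnfrsf4 and Cish the members, summed over unlike clusters, lie above CD25- cells under the same rule and below Foxp3-positive cells without response. Klf2 and S1pr1 in the members lie far above cells with response transcripts.

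The neighbours within the gate were set beside the members as a description, since Foxp3 and the response transcripts define these contrasts. Against Foxp3-positive cells without response transcripts (314 wild-type and 128 knockout-labelled cells), 753 genes were higher in wild-type members (11.1% of 6797) and 489 lower (7.19%), and 654 (9.62%) and 447 (6.58%) passed the interval. The knockout-labelled counts were 1597 (23.0% of 6945) and 891 (12.8%), of which 1071 (15.4%) and 599 (8.62%) passed it, where the median over all genes was itself 0.11 on the log2 scale. All 13 measured genes of the Treg list in wild type and all 11 in the knockout-labelled library were at least 1.5-fold lower in the members. Il2ra was at 146 and 154 CPM against 621 and 634 CPM, Il2rb at 86.7 and 82.0 CPM against 396 and 489 CPM, and Tnfrsf18 at 189 and 159 CPM against 531 and 622 CPM. Without cluster 5 the members' Il2ra was at 81.9 and 60.8 CPM. For these 3 genes the summed level of the members lay between those of the CD25- cells and the Foxp3-positive cells. That level is of a mixture of clusters and need not hold for each.

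The genes higher in the members than in Foxp3-positive cells included leading genes of several clusters. Id2, an inhibitor of E proteins that led cluster 1, was at 141 and 163 CPM against 14.9 and 6.82 CPM, and Il7r, the interleukin-7 receptor chain, at 336 and 333 CPM against 44.7 and 59.6 CPM. The helper ligand Cd40lg was at 97.9 and 92.8 CPM against 17.7 and 18.7 CPM. Igfbp4, which led cluster 3, was at 333 and 263 CPM against 80.8 and 153 CPM. Plac8, which led cluster 5, was at 107 and 181 CPM against 78.7 and 11.9 CPM, and without cluster 5 at 5.97 and 3.44 CPM. Klf2 and S1pr1 were lower in the members, at 429 and 338 CPM against 972 and 895 CPM for Klf2. Among the CD25+ cells without response transcripts, the Foxp3-positive ones had the higher Klf2 and S1pr1.

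Against Foxp3-negative cells with response transcripts (423 and 334 cells), 752 genes were higher (10.9% of 6874) and 756 lower (11%) in wild-type members, and 745 (10.8%) and 748 (10.9%) passed the interval. In knockout-labelled members 867 were higher (12.5% of 6939) and 751 lower (10.8%), and 781 (11.3%) and 655 (9.44%) passed it. Without cluster 5 the knockout-labelled counts were 1057 higher (15.2% of 6970) and 1178 lower (16.9%), of which 933 (13.4%) and 1016 (14.6%) passed it. In each library 12 of 14 mature and egress genes were at least 1.5-fold higher in the members, with medians of 1.71 and 1.69 on the log2 scale. S1pr1 was at 167 and 97.3 CPM against 32.8 and 19.4 CPM, and Igfbp4 at 333 and 263 CPM against 29.0 and 13.4 CPM. Genes of the rule were never counted in lists. Of 20 TCR response genes, 14 of 19 measured in wild type were at least 1.5-fold lower in the members. In the knockout-labelled library 12 of 18 were. The medians were -1.42 and -1.48 on the log2 scale, and none was that much higher. The chemokine Xcl1 was at 5.33 and 2.70 CPM against 458 and 598 CPM, and Nr4a3 at 10.2 and 7.21 CPM against 199 and 166 CPM. Other response genes were present in the members, where Egr1 UMIs were found in 17.3% and 20% of cells, Dusp2 UMIs in 47.9% and 46.3% and Junb UMIs in 53.6% and 57.1%. Ikzf2 was 275 and 251 CPM in the members and 1104 and 1166 CPM in the responding cells, above the 615 and 399 CPM of Foxp3-positive cells. Interferon response genes were higher in the members, 10 of 15 in wild type and 14 of 15 in the knockout-labelled library.

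The comparison nearest the study's question about PD-1 was of the members of the 2 CD25+ libraries. With 1 library of each label, genotype and library cannot be told apart. In the knockout-labelled members 383 genes were higher by at least 1.5-fold (5.60% of 6841) and 350 lower (5.12%), of which 293 (4.28%) and 239 (3.49%) also had a counting interval that excluded no difference. Without cluster 5 there were 336 higher (4.91% of 6839) and 361 lower (5.28%), of which 207 (3.03%) and 196 (2.87%) passed the interval. For 3 genes that set the members apart from the CD25- gate, the intervals of the ratio between libraries spanned 1 with all clusters. Il2ra was at 146 CPM in wild-type and 154 CPM in knockout-labelled members (ratio 1.05, 0.868 to 1.27), Ikzf2 at 275 and 251 CPM (1.09-fold lower, 0.946 to 1.27), and Ctla4 at 64.0 and 82.0 CPM (1.28, 0.970 to 1.69). Without cluster 5 the direction of Il2ra turned, at 81.9 CPM in wild-type and 60.8 CPM in knockout-labelled members (1.35-fold lower, 0.980 to 1.88). Ctla4 was then at 68.4 and 99.7 CPM, 1.46-fold higher with an interval above 1 (1.10 to 1.93), and Ikzf2 was 1.06-fold lower (0.909 to 1.24). Of 11 Treg list genes measured, 1 was at least 1.5-fold higher with an interval that excluded 1 and none that much lower, with a median of 0.07 on the log2 scale against -0.01 over all genes.

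The largest named differences were in Thy1, Hspa8 and Iigp1. Thy1 (ENSMUSG00000032011), a surface glycoprotein of T cells at chromosome 9, 44043384 to 44048579 on the plus strand of mm10, was at 312 CPM (288 to 337) in wild-type and 59.4 CPM (46.0 to 75.6) in knockout-labelled members. That is 5.25-fold lower (4.07 to 6.87), and 6.47-fold (4.69 to 9.16) without cluster 5. Hspa8 (ENSMUSG00000015656), the constitutive HSC70 chaperone at chromosome 9, 40800984 to 40810087 on the plus strand, was at 1908 CPM and 502 CPM, 3.80-fold lower (3.48 to 4.16). Iigp1, an interferon-inducible GTPase, was at 22.3 and 122 CPM, 5.50-fold higher (3.91 to 7.86), with a UMI in 6.77% of wild-type and 28.8% of knockout-labelled members. Rbm3, a cold-inducible RNA-binding protein, was at 468 and 1093 CPM (2.33-fold, 2.14 to 2.54), with a UMI in 80.5% and 86.8% of members. All 4 genes differed in the same direction in each of the 5 clusters. Thy1, for one, was at 111 and 14.5 CPM in cluster 1, 254 and 23.6 CPM in cluster 2, 504 and 107 CPM in cluster 3, 336 and 86.4 CPM in cluster 4, and 439 and 109 CPM in cluster 5.

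These 4 genes differed alike outside the members. In CD25- cells under the same rule, whose comparison was added after the data had been seen, Thy1 was at 419 CPM in wild-type and 119 CPM in knockout-labelled cells, Hspa8 at 1670 and 461 CPM, Iigp1 at 42.6 and 150 CPM and Rbm3 at 402 and 884 CPM. That comparison had 92 genes higher (1.37% of 6736) and 73 lower (1.08%). Among genes that passed the interval, 33 were higher in both gates, 11.3% of the 293 higher in members and 35.9% of the 92 higher in CD25- cells. Genes lower in both numbered 18, 7.53% of 239 and 24.7% of 73. Only 197 of the 293 and 222 of the 239 were tested in the CD25- gate. No gene tested and past both thresholds in the 2 comparisons went the opposite way. Ms4a4c was at 18.9 and 54.9 CPM in members and 9.54 and 27.1 CPM in the CD25- gate. The glutathione transferase Gsta4 was at 21.3 and 54.0 CPM and at 4.92 and 16.9 CPM. Gimap7, a lymphocyte GTPase, was at 94.0 and 33.3 CPM in members and 68.9 and 47.4 CPM in the CD25- gate. The other named genes that were higher in the knockout-labelled members were Ctsl, Ung, Hist1h1b, Gcsh, Dus1l and Fkbp5, and the others lower were Ranbp9, Letm2, Cenpa, Suox, Als2cl, Ifi214 and Dynlt1b, all by between 2.04-fold and 2.69-fold with all clusters. Without cluster 5 these 7 lower genes were 1.80-fold to 2.31-fold lower, with intervals that excluded 1. Of the higher ones, Ung (1.81-fold, 1.07 to 3.04), Dus1l (1.73-fold, 1.08 to 2.75) and Fkbp5 (1.64-fold, 1.04 to 2.56) then had intervals above 1. Those of Gcsh (1.52-fold, 0.899 to 2.53), Ctsl (1.41-fold, 0.731 to 2.65) and Hist1h1b (1.06-fold, 0.541 to 1.98) spanned it. In Ctsl 30 of 68 and in Hist1h1b 30 of 56 knockout-labelled UMIs lay in 1 cell.

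**Figure D4:**
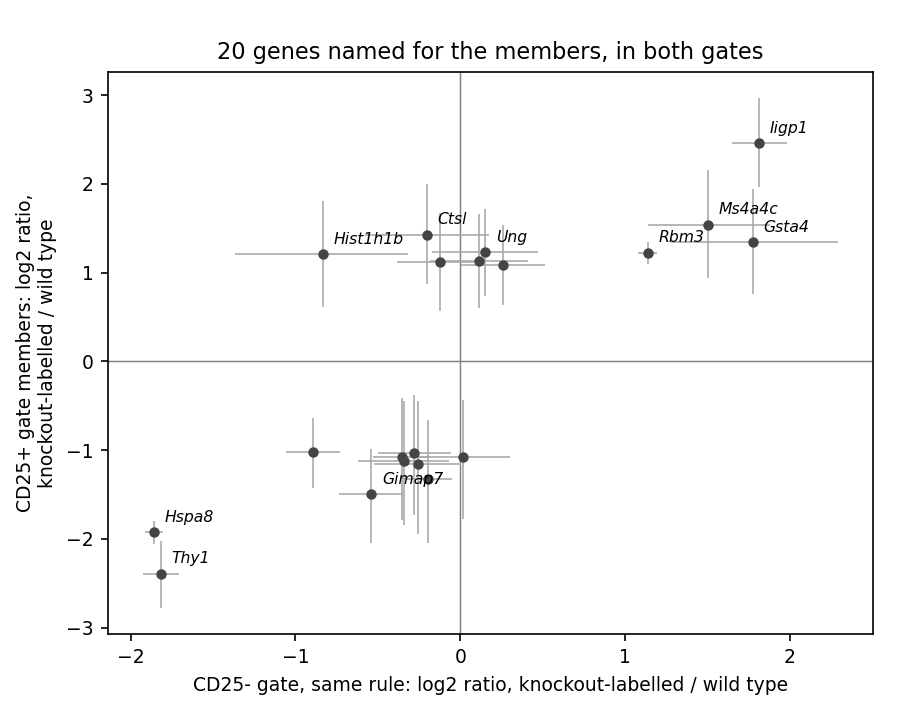
Log2 ratio of knockout-labelled to wild-type levels for the 20 genes named for the members, in the members (vertical axis) and in CD25- cells under the same rule (horizontal axis), with 95% counting intervals. Thy1, Hspa8, Iigp1, Rbm3, Ms4a4c and Gsta4 lie far from 0 on both axes, while Hist1h1b, with 30 of its 56 knockout-labelled UMIs in 1 member, is above 0 in members and below 0 in the CD25- gate.

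Genes of maturity and egress leaned lower in the knockout-labelled members. Of the 14 mature and egress genes none was above 0 on the log2 scale, the median was -0.33, and 1 was at least 1.5-fold lower. The gene at least 1.5-fold lower was S1pr1, at 167 CPM (150 to 186) in wild-type and 97.3 CPM (79.8 to 117) in knockout-labelled members, 1.72-fold lower (1.38 to 2.15). Without cluster 5 the median of the list was -0.19 and 1 of its genes was above 0. Klf2 was at 429 and 338 CPM, 1.27-fold lower (1.12 to 1.44). With cluster 5 left out, Klf2 was at 469 and 414 CPM, 1.13-fold lower (1.002 to 1.29). S1pr1 was then 1.57-fold lower (1.26 to 1.98). Within clusters 1 to 4 Klf2 was not lower in the knockout-labelled cells: 44.9 and 52.3 CPM, 781 and 850 CPM, 702 and 763 CPM, and 279 and 340 CPM. In cluster 5 it was lower, at 90.6 and 58.8 CPM. S1pr1 was lower in clusters 2 (312 and 241 CPM) and 3 (327 and 259 CPM). In clusters 1, 4 and 5 its direction rested on few UMIs, 4 and 3, 13 and 15, and 3 and 5. No interval is given within clusters. The clustering did not leave out Klf2 or S1pr1, so cells of a cluster may already be alike in them. The share of members in cluster 3, where both genes were high, differed as given above. In the CD25- gate S1pr1 was at 210 and 211 CPM, so no lower level was seen there. Ccr7, the receptor that draws thymocytes into the medulla, was at 479 and 340 CPM and lower in all 5 clusters. Rflnb, of cluster 3, was at 32.5 and 9.91 CPM.

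Cd24a and genes of other lineages differed with cluster 5 and much less without it. Cd24a was at 80.9 CPM in wild-type and 154 CPM in knockout-labelled members (1.90-fold, 1.53 to 2.37), and without cluster 5 at 27.1 and 29.8 CPM (1.10-fold, 0.657 to 1.80). The summed level of the 10 gamma-delta T cell genes was 106 and 184 CPM with all clusters and 37.4 and 42.4 CPM without cluster 5. For the 14 innate and natural killer genes it was 237 and 429 CPM, and 28.2 and 31.0 CPM without it, with 5 of the 14 at 0 in each library, and 7 in each without cluster 5. Of 16 measured proliferation genes, 6 were at least 1.5-fold higher in the knockout-labelled members with all clusters and 1 of 14 without cluster 5. Ccr9 was at 170 and 261 CPM, 1.54-fold higher (1.31 to 1.80), and 1.66-fold (1.41 to 1.96) without cluster 5. Nrgn, a calmodulin-binding protein, was at 52.6 and 136 CPM without cluster 5, with 33 of 124 knockout-labelled UMIs of all members in 1 cell. Interferon response genes, 4 of 15 at least 1.5-fold higher without cluster 5, had a median of 0.26 on the log2 scale. Over all genes tested, 4.91% were that much higher and the median was -0.02. Not every interferon-inducible gene was higher: Ifi214 was 2.04-fold lower (1.30 to 3.32) with all clusters.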

How the data were processed

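For each of 4 libraries (10x Genomics 5′ kit) the authors deposited raw UMI counts per gene and barcode, without normalization. The genome build was mm10, and the submitters' processing notes name Cell Ranger 6.2.1 while the file headers name 6.1.2. Barcodes with at least 500 genes and under 10% mitochondrial UMIs were kept. UMIs were summed per library and class and scaled to CPM. Ratios have exact conditional binomial, levels Poisson and shares Clopper-Pearson 95% intervals. Genes entered at 20 CPM in either group and were counted at 1.5-fold, and lists (24) were summarised over genes with at least 20 UMIs. Named genes were the 10 highest and 10 lowest with at least 100 UMIs, an interval that excludes 1 and the same direction with cells weighted equally. They exclude rule, receptor segment, sex-linked, mitochondrial, ribosomal, hemoglobin and unnamed genes. A fixed list that includes Klf2, S1pr1, Il2ra, Ikzf2 and Ctla4, and the 2 extreme genes of each list, could also be named, and some others were picked after their values were seen. Members were clustered with scanpy 1.11.5 (Leiden, resolution 0.5, 20 components, 15 neighbours). Doublets were marked with Scrublet at 0.8% per 1000 barcodes and kept, since the rule keeps them. Thinning used 1500 UMIs per cell. Positions are from GENCODE vM21 (GRCm38), which holds 32235 of the 32285 genes. The members, lists and tests were chosen with earlier results of these data known. The ratio and interval were tested on simulated counts. Leaving out cluster 5, and the comparison of the CD25- libraries, were added after the data were seen.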

Additional observations from a re-analysis of the deposited data

Results flagged for a closer look

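Hist1h1b, a linker histone made during DNA synthesis, differed between the libraries in opposite directions in the 2 gates. In the members its log2 ratio of knockout-labelled to wild type was 1.21 (21.8 CPM in wild-type and 50.4 CPM in knockout-labelled members), and in CD25- cells under the same rule it was -0.83. Of its 56 knockout-labelled UMIs in members, 30 lay in 1 cell and 40 in cluster 5, and without that cluster its log2 ratio was 0.08 (17.4 and 18.3 CPM). The difference between these effects was not tested, since each group has 1 library. The members' ratio turned to -0.47 where Cd4 and Trac together had to reach 3 UMIs.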

How the results depend on the processing

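No paired analysis was possible because each group has 1 library. Leaving out a replicate was not possible for the same reason. The counts of genes higher and lower move most with the thresholds. In the order knockout-labelled against wild-type members, wild-type then knockout-labelled members against the CD25- gate, against responding cells, and against Foxp3-positive cells, a minimum of 50 CPM left 125 and 110, 86 and 90, 271 and 196, 426 and 472, 431 and 409, 289 and 278, 775 and 484. A fold of 2 left 85 and 59, 72 and 31, 185 and 93, 267 and 201, 340 and 212, 202 and 157, 753 and 364. With no CPM minimum but at least 20 UMIs the counts were 719 and 736, 834 and 913, 1148 and 1219, 1303 and 1268, 1276 and 1208, 1362 and 761, 1906 and 952.

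The choice of members moves with the Cd4 and Trac condition. At 3 UMIs or more there were 178 wild-type (2.17%) and 67 knockout-labelled members (0.663%), and with at least 1 UMI of each gene 177 (2.15%) and 68 (0.673%). Genes lower were then 738 between libraries, 707 against the knockout-labelled CD25- gate, 1364 against knockout-labelled responding cells and 790 against wild-type Foxp3-positive cells at 3 UMIs. With 1 UMI of each gene, 667 were higher and 786 lower between libraries, 1334 and 1336 against knockout-labelled responding cells, and 1236 and 921 against wild-type Foxp3-positive cells. Response genes at 0 gave 3.83% and 1.57% of kept cells. The rule on thinned cells gave 2.63% in the knockout-labelled library, with 416 genes higher and 437 lower in wild-type members against the CD25- gate and 1140 higher against Foxp3-positive cells. The stricter cell filter left 144 genes lower in wild-type members against the CD25- gate, and equal cell weights gave 854. Without the Plac8 and Tyrobp cluster, 134 and 270 genes were higher against the CD25- gate, and 1178 genes were lower in knockout-labelled members against responding cells. The causes of these shifts were not tested.

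Direction was counted as changed in 8 of the single-gene ratios tried, which do not include every turn seen without cluster 5. Il2ra between libraries and Plac8 against Foxp3-positive cells also turned, as given above. Plac8 against knockout-labelled responding cells turned too, from 181 CPM in all members to 3.44 CPM without cluster 5, against 64.3 CPM. Between libraries, Cd24a went from 0.93 on the log2 scale to -1.38 at 3 UMIs of Cd4 and Trac and to -1.63 with 1 UMI of each, Hist1h1b from 1.21 to -0.47 and -0.54, Fkbp5 from 1.09 to -0.022 with 1 UMI of each, and Ccr9 from 0.62 to -0.14 with the rule on thinned cells. Plac8 in knockout-labelled members against the CD25- gate went from 5.07 to -0.65 without cluster 5, and Hist1h1b between the CD25- libraries from -0.83 to 1.69 with the rule on thinned cells. Leiden resolutions of 0.25 and 1 gave 3 and 10 clusters in place of 5. At 0.25, at least 97.7% of the cells of each cluster stayed in 1 cluster. At 1, 53.4%, 51.4%, 61.2% and 54.0% of the cells of clusters 1 to 4 did, and 100% of cluster 5. Shares by library were computed at 0.5 only. Shares of members with a UMI rose without thinning, to 57.9% and 48.3% for Klf2, 39.6% and 31.2% for S1pr1 and 18.0% and 22.4% for Il2ra, and at 3000 UMIs per cell were 53.8% and 44.7%, 31.1% and 23.3%, and 14.5% for wild-type Il2ra. With 1 library per group and 205 knockout-labelled members, low genes rest on few UMIs, and no interval covers differences between animals.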
